A study of Mus musculus with 9 samples.

Results

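The 42 genes described here encode proteins of autophagy, mitophagy and the lysosome. They were taken by gene symbol, with no threshold on any measured value, and all 42 were found among the 26858 genes of the count table. All 42 also had enough reads to be among the 14990 genes tested. By role they comprise 8 genes of autophagy initiation and phagophore growth, 6 genes of the ATG8 conjugation machinery, 5 ATG8 proteins, 6 cargo receptors and mitophagy genes, 3 transcription factors of the MiT/TFE family and 14 genes of the lysosome itself. RNA was sequenced from nephron progenitors sorted for eGFP from mouse kidneys at age E18.5. The Six2-eGFP/cre transgene, in which the Six2 promoter on a bacterial artificial chromosome drives a fusion of Cre recombinase and eGFP, marked these cells and recombined floxed Uqcrq (Qpc), the gene of the complex III subunit QPC. There were 4 control libraries from Six2-Qpc+/- embryos, labelled as heterozygous, and 5 mutant libraries from Six2-Qpc-/- embryos. Both groups thus expressed Cre and eGFP, and the controls had kept a single functional Qpc allele. Libraries are named by the replicate number in their labels, 71, 72, 73 and 76 for control and 74, 75, 77, 78 and 79 for mutant. The labels give no litter, batch or pooling and do not state that each library came from a separate animal, so the p-values measure the spread between these libraries.

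Library totals ranged from 21040536 to 23986458 counts, and levels are given as CPM, counts per 1000000 after normalization by the trimmed mean of M values (TMM). Uqcrq lay between 76.8 and 107 CPM in control and between 16.5 and 28.2 CPM in mutant libraries (log2 fold change -2.14 ± 0.16, standard error, SE, edgeR adjusted p = 2.087e-05), which matched the labels. The summed level of 11 nephron progenitor markers was 1752 to 2135 CPM in control and 1962 to 2319 CPM in the mutants (exact 2-sided permutation of libraries, p = 0.0714). On the first principal component of all tested genes control replicate 76 (-15.3) and mutant replicate 74 (5.01) lay closest to the other genotype. Summed macrophage markers were 4.43 to 27.4 CPM in control and 21.7 to 249.9 CPM in mutant libraries, and their values by library stand with the last results. Y-linked reads were present in 2 of 4 control libraries (72 and 73) and in 1 of 5 mutant libraries (79).

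Macroautophagy encloses cytoplasm or an organelle in a growing membrane, the phagophore, and delivers it to the lysosome, where acid hydrolases break it down and return amino acids, sugars and lipids to the cell. ATG8 proteins, of the LC3 and GABARAP subfamilies, are attached to the lipid of that membrane and bind receptors that carry the cargo, and mitophagy is the form that removes mitochondria. TFEB and its relatives TFE3 and MITF bind an E-box element in many promoters of lysosomal genes and are held in the cytoplasm by mTORC1 while amino acids are plentiful, whereas ATF4 and CHOP, factors of the stress response to amino acid shortage, act on several autophagy genes.

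Of the 42 genes, 6 were higher in mutant than in control progenitors and none was lower at an adjusted p-value under 0.05 (edgeR quasi-likelihood test, Benjamini-Hochberg adjustment over 14990 genes). The 6 were Lamp2, Gabarap, Ctsl, Sqstm1, Atg14 and Gabarapl1, with log2 fold changes from 0.36 to 0.95. That is 14.3% of the 42, beside 7.82% of all tested genes called higher and 7.02% called lower. The median log2 fold change of the 42 genes was 0.04, beside -0.01 over all tested genes, and 23 of the 42 values were above 0. At an unadjusted p under 0.05, 12 of the 42 were higher (16.3% of all genes) and 4 were lower (15.2% of all genes). DESeq2 called 9 of the 42 higher (10.4% of all genes) and 0 lower (8.59%), and limma-voom with sample quality weights called 11 higher (16.1%) and 7 lower (16.4%). Groups did not overlap, all mutant libraries lying above all controls, for 5 of the 42 genes (7.5% of all genes), namely Atg14, Gabarapl1, Sqstm1, Ctsl and Lamp1, and for none in the other direction (7.73% of all genes). Of the 19 genes of the autophagy core 3 were called, of the 14 lysosomal genes 2, and of the 6 cargo receptors and mitophagy genes 1. In sorted cells sequenced in bulk, a different share of cells of a type and a different amount of RNA per cell cannot be told apart.

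**Figure D1:**
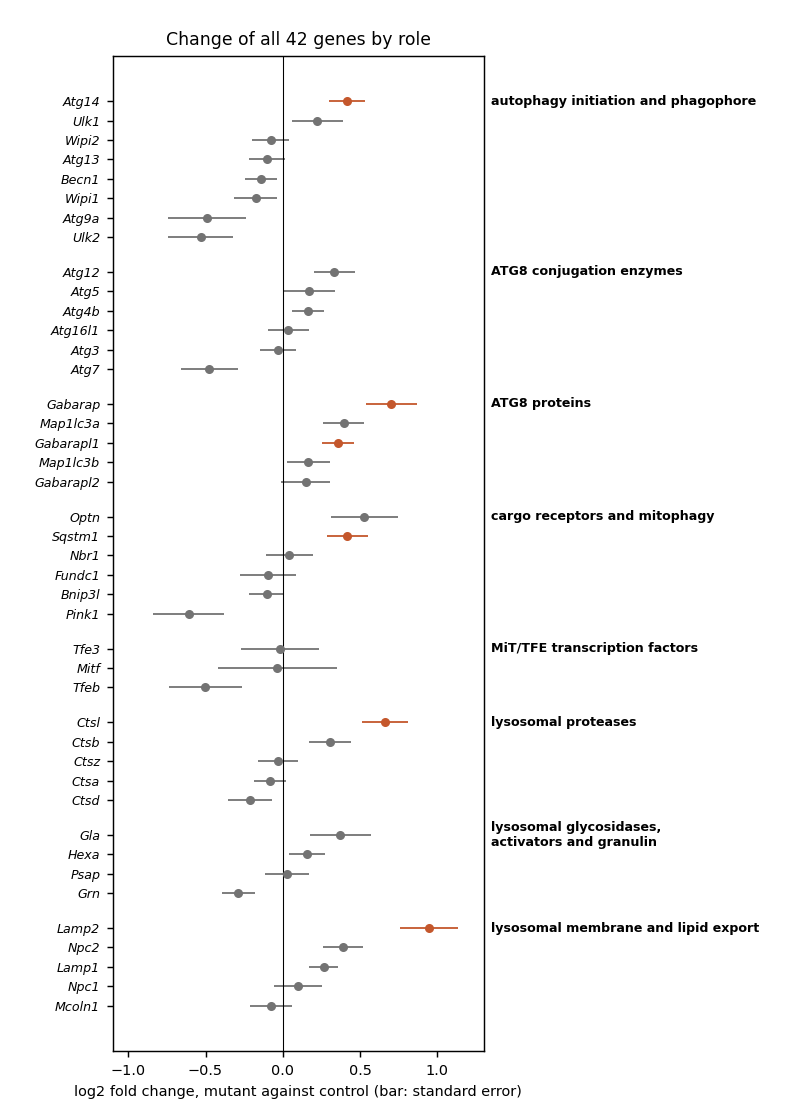
The log2 fold change of mutant against control (x axis) is drawn for each of the 42 genes, grouped by role and ordered by value within each role, with bars for the standard error from edgeR. Orange marks the 6 genes called higher and grey the 36 genes not called; the range runs from -0.61 for Pink1 to 0.95 for Lamp2, and all 5 ATG8 proteins lie above 0.

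Because TFEB, TFE3 and MITF bind E-box elements, the promoter letters of the genes were read first. RefSeq promoter windows of 300 bases (250 before and 50 after the annotated start, GRCm38.p6) were found for 35 of the 42 genes. The palindrome TCACGTGA, the core of the element bound by TFEB, was in the window of 5 of these 35 genes (14.3%), beside 1.125% of 27025 genes with a window, searched in the same way. The 5 genes were Atg3, Ctsa, Ctsd, Gla and Mcoln1, none of which was among the 6 genes called higher. The shorter E-box CACGTG, which lies within every TCACGTGA, was found in 10 of 35 genes (28.6%) beside 8.09% of all genes, and 6 of 35 (17.1%) held 2 or more copies beside 0.681% of all genes. Among the 6 genes called higher, Atg14 and Ctsl held a single CACGTG each. The core of the C/EBP-ATF response element, TGATGNAA, was found only in Ctsl among the 35 genes (2.86%, beside 4.51% of all genes), and that of the antioxidant response element, TGACNNNGC, in 8 of 35 (22.9%, beside 13.99%) and in none of the 6 called genes. Both strands were searched, N stands for any base, and a match describes letters and not binding.

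The stretches below are shown as examples of promoters with several E-boxes (Lamp1, Atg3, Mcoln1 and Gla) or a TCACGTGA (Ctsd), with Ctsl and Lamp2 for the lysosomal genes called higher. Each is 100 bases of RefSeq sequence (GRCm38.p6), 5′ to 3′ on the strand of the gene, and capitals mark CACGTG. The stretch ends at the base before the annotated start, except for Gla (237 to 138 bases before it) and Ctsl (246 to 147 bases before it).
Lamp1, chr8:13159061-13159160, plus strand: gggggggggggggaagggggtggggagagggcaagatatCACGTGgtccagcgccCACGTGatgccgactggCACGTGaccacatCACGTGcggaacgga
Atg3, chr16:45158729-45158828, plus strand: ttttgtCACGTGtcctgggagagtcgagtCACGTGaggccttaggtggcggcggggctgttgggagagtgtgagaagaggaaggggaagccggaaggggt
Mcoln1, chr8:3500419-3500518, plus strand: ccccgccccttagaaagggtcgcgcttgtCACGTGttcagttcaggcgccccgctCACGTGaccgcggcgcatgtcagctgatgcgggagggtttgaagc
Ctsd, chr7:142387828-142387927, minus strand: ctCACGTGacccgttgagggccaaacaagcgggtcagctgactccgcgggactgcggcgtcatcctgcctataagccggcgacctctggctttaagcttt
Gla, chrX:134601143-134601242, minus strand: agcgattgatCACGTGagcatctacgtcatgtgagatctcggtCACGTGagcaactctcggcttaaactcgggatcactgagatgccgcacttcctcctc
Ctsl, chr13:64370667-64370766, minus strand: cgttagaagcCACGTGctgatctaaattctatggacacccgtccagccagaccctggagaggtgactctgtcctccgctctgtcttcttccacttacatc
Lamp2, chrX:38456461-38456560, minus strand: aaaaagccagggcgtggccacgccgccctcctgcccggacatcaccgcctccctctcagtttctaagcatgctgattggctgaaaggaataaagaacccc
The Lamp1 stretch held 4 E-boxes, which began 61, 45, 28 and 15 bases before the start, and Lamp2, the gene with the largest rise, held none in its window. Both E-boxes of Gla, at 227 and 194 bases before the start, lay within TCACGTGA. So did both of Ctsa, which is not shown, the first of them 12 bases before the start and the second after it.

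**Figure D2:**
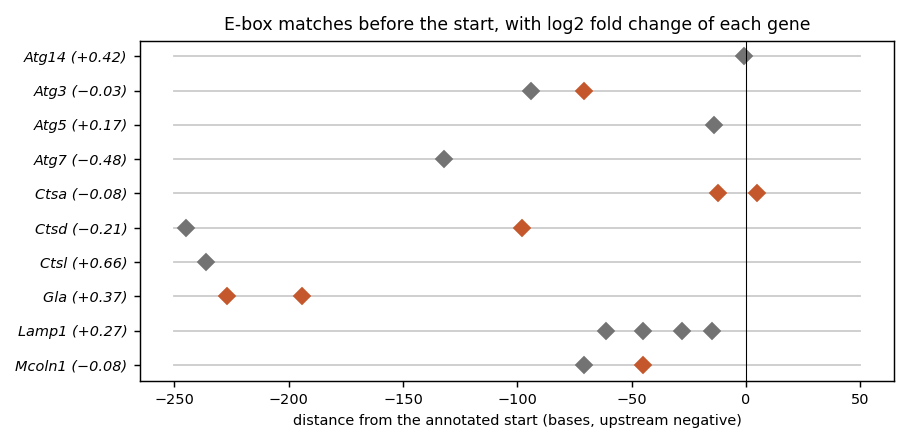
Each row is 1 of the 10 genes with at least 1 CACGTG in the promoter window, from 250 bases before to 50 bases after the annotated start (x axis, bases, upstream negative), with its log2 fold change in brackets. Orange diamonds lie within TCACGTGA and grey diamonds do not; the 5 genes with an orange diamond have log2 fold changes from -0.21 to 0.37, and Atg14 and Ctsl, both called higher, have grey diamonds.

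The genes of autophagy initiation and phagophore growth encode parts of the ULK kinase complex and the class III phosphatidylinositol 3-kinase complex, the membrane protein ATG9A and WIPI proteins. Of these 8 genes only Atg14, whose product directs the phosphatidylinositol 3-kinase complex to autophagosome formation, passed the test. Atg14 (ENSMUSG00000037526, mm10 chromosome 14, 47540894 to 47568434) had 46.5, 54.0, 57.6 and 59.0 CPM in control replicates 71, 72, 73 and 76 and 61.8, 73.4, 76.8, 78.3 and 71.6 CPM in mutant replicates 74, 75, 77, 78 and 79. The groups did not overlap, with the narrowest gap between control replicate 76 and mutant replicate 74. On the log2 scale Atg14 was higher by 0.42 ± 0.12 (SE, edgeR adjusted p = 0.0328). Its value lay between 0.35 and 0.53 over 17 alternative settings, 9 of which kept the call, and of the 9 fits that left out 1 library only those without control replicate 76 and without mutant replicate 74 did so. The other 7 genes of initiation did not pass with edgeR or DESeq2, whereas limma-voom called Ulk2 and Atg9a lower and 3 of 17 alternatives called Ulk2. The edgeR values, with a median of -0.12 for all 8, ran from Ulk2, the kinase paralogue of Ulk1, at -0.53 (adjusted p = 0.102) to Ulk1 at 0.22 (adjusted p = 0.381). Between them lay Atg9a at -0.49, Wipi1 at -0.18, Becn1 at -0.14, Atg13 at -0.10 and Wipi2 at -0.08.

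The ubiquitin-like conjugation machinery cleaves ATG8 proteins and joins them to phosphatidylethanolamine. None of its 6 genes was called in either direction by edgeR or DESeq2, with a median log2 fold change of 0.10. At an unadjusted p under 0.05, 1 was higher and 1 lower, and limma-voom called the same number, Atg12 higher and Atg7 lower. Atg12, the ubiquitin-like protein joined to ATG5, had the highest value at 0.33 (adjusted p = 0.0968), and Atg7, the E1-like enzyme, had the lowest at -0.48 (adjusted p = 0.0983). Atg7 lay between 26.2 and 39.7 CPM in control and between 20.6 and 32.1 CPM in mutant libraries, so the groups overlapped. Atg5 was at 0.17, the protease gene Atg4b at 0.16, Atg16l1 at 0.04 and the E2-like enzyme gene Atg3, with the 2 E-boxes shown, at -0.03.

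The ATG8 proteins were the role group in which every value lay above 0. Of its 5 genes Gabarap and Gabarapl1 passed the test, the median log2 fold change was 0.36, and all 5 values stayed above 0 under each of the 17 alternative settings. Gabarap (ENSMUSG00000018567, mm10 chromosome 11, 69991143 to 69994951), the founding member of the GABARAP subfamily, had 277, 206, 229.5 and 328 CPM in control replicates 71, 72, 73 and 76 and 307, 479, 468, 476 and 386.5 CPM in mutant replicates 74, 75, 77, 78 and 79. Mutant replicate 74 lay below control replicate 76, and the other 4 mutant libraries lay above all controls. The rise was 0.70 ± 0.17 on the log2 scale (SE, edgeR adjusted p = 0.0149), and 16 of 17 alternatives kept the call, the exception being the fit without control replicate 73 (adjusted p = 0.0577).

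Gabarapl1 (ENSMUSG00000030161, mm10 chromosome 6, 129533200 to 129542331), a close relative of Gabarap, had 110.3, 112, 94.2 and 100.3 CPM in the control replicates and 132, 149, 131, 128 and 129 CPM in the mutant replicates, in the same order. All mutant libraries were above all controls, and the 5 mutant values were close together apart from replicate 75. Gabarapl1 rose by 0.36 ± 0.10 on the log2 scale (SE, edgeR adjusted p = 0.0351). It stayed between 0.31 and 0.41 in the 17 alternatives, but its call was kept in only 7 of them and, of the 9 fits without 1 library, only in that without mutant replicate 74, with adjusted p-values from 0.00608 to 0.125.

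Neither LC3 gene passed with edgeR, whereas DESeq2 and limma-voom called Map1lc3a higher. Map1lc3a had 119, 94.9, 121 and 123 CPM in control and 141, 181, 147.5, 160.2 and 123 CPM in mutant replicates, in the same order, and only mutant replicate 79 fell within the control range. The log2 difference was 0.39 ± 0.13 (SE) and missed the threshold (edgeR adjusted p = 0.0596), with a call in 5 of 17 alternatives. Map1lc3b, the LC3 gene with the higher level per length, had 879, 632, 680.5 and 833 CPM in control and 711, 953, 924, 909 and 745 CPM in mutant replicates, with wide overlap and a log2 fold change of 0.17 (adjusted p = 0.439). Gabarapl2 had 129, 90.7, 97.2 and 132 CPM in control and 98.8, 134, 145, 142 and 104 CPM in mutant replicates. Mutant replicates 74 and 79 were inside its control range, and the log2 fold change was 0.15 (adjusted p = 0.559). Gabarapl2 also has processed copies elsewhere in the genome, which can share its reads.

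**Figure D3:**
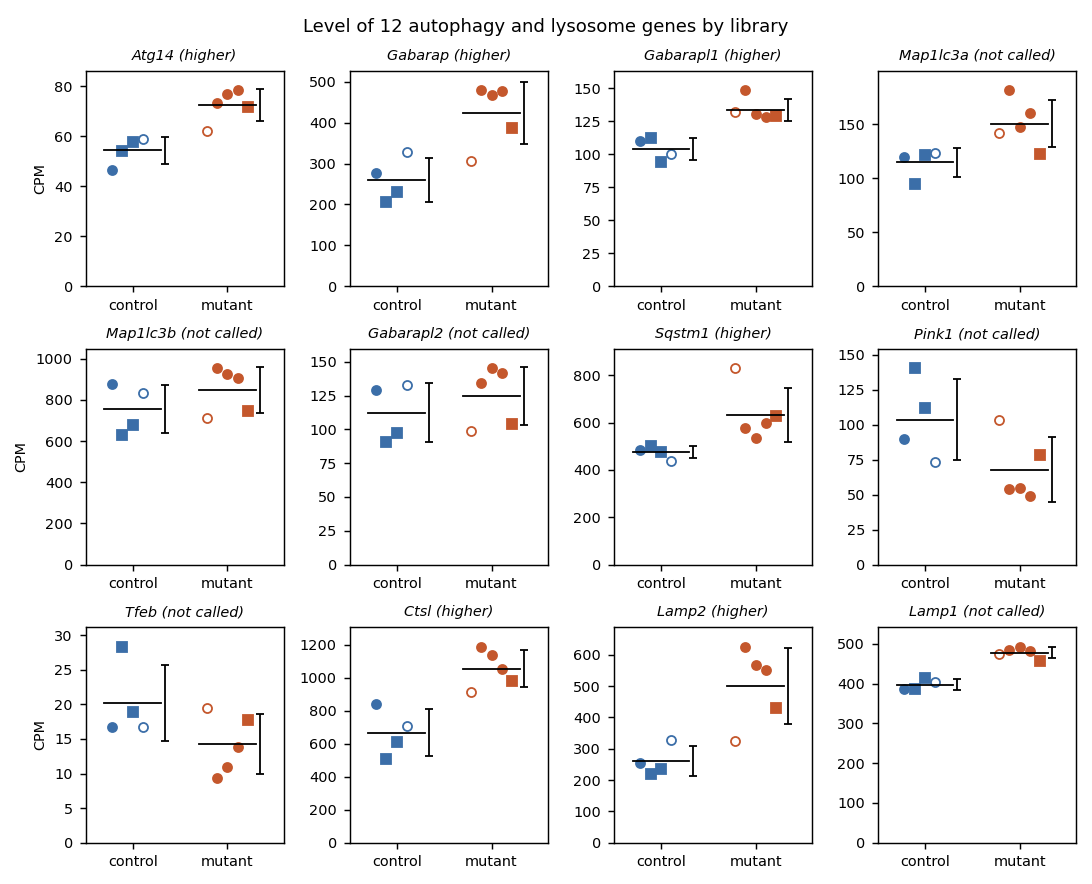
Each panel gives the CPM (linear axis from 0) of 1 gene in the 4 control libraries (blue) and the 5 mutant libraries (orange), with a line at the group mean and a bar of 1 SD beside it. Squares are libraries with Y-linked reads and open symbols are control replicate 76 and mutant replicate 74. Groups are apart for Atg14, Gabarapl1, Sqstm1, Ctsl and Lamp1, and the open symbols of Lamp2 and Gabarap lie at about the same height in both groups.

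Selective autophagy relies on receptors that bind both the cargo and an ATG8 protein. Sqstm1 (ENSMUSG00000015837, mm10 chromosome 11, 50199366 to 50210827), the receptor for ubiquitinated cargo and itself a substrate of autophagy, was the only one of 6 receptor and mitophagy genes to pass. It had 482, 499, 475 and 439 CPM in control replicates 71, 72, 73 and 76 and 828.5, 577, 537, 596 and 628 CPM in mutant replicates 74, 75, 77, 78 and 79. Mutant replicate 74 was the highest library, unlike for Gabarap and Lamp2, and no mutant library overlapped with a control library. The rise was 0.42 ± 0.13 on the log2 scale (SE), with an edgeR adjusted p of 0.0479, just under the threshold. The call was kept in 5 of 17 alternatives and, of the 9 fits without 1 library, only in that without mutant replicate 77, with a log2 fold change between 0.28 and 0.47 and an adjusted p between 0.0177 and 0.118. Sqstm1 shares 580 bases of exon with Mrnip on the opposite strand, and these libraries do not keep the strand.

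Pink1, the kinase that accumulates on damaged mitochondria and starts ubiquitin-dependent mitophagy, had the lowest value of all 42 genes but did not pass. Its levels were 89.7, 140.3, 112 and 73.04 CPM in control replicates and 104, 53.9, 54.5, 49.0 and 78.7 CPM in mutant replicates, in the order used above. Mutant replicates 74 and 79 lay within the control range and the other 3 mutant libraries below it. The log2 difference was -0.61 ± 0.23 (SE, edgeR adjusted p = 0.0896), and 4 of 17 alternatives called Pink1 lower. Among them were the fits without mutant replicate 74, without control replicate 76 and without both. Optn, a receptor of ubiquitinated mitochondria, was at 0.53 (adjusted p = 0.116) with levels of only 4.95 to 10.1 CPM. The mitochondrial outer membrane receptors Bnip3l and Fundc1 were both at -0.10, and Nbr1, a receptor related to Sqstm1, was at 0.04. The median of the 6 genes was -0.03.

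None of the 3 MiT/TFE factors was called by edgeR, either adjusted or at an unadjusted p under 0.05, or by DESeq2. Tfeb, the master factor of lysosomal genes, had 16.7, 28.4, 18.9 and 16.8 CPM in control and 19.5, 9.34, 10.9, 13.8 and 17.7 CPM in mutant replicates, in the same order. Mutant replicates 75, 77 and 78 were below all controls, and replicates 74 and 79 were within the control range. The log2 difference was -0.50 ± 0.24 (SE, edgeR adjusted p = 0.168), and limma-voom alone called it lower. Tfe3 was at -0.02 and Mitf at -0.03, the latter with 0.970 to 3.96 CPM in any library. RNA levels do not show whether these factors are in the nucleus.

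Among the 5 lysosomal proteases only Ctsl, a cysteine protease, was called by edgeR and DESeq2, and limma-voom also called Ctsb higher and Ctsd lower. Ctsl (ENSMUSG00000021477, mm10 chromosome 13, 64363214 to 64370306) had 843.5, 509, 610.4 and 705 CPM in control replicates and 914, 1189, 1141, 1053 and 984 CPM in mutant replicates. No library overlapped between genotypes, and mutant replicate 74 was the lowest mutant library. Ctsl rose by 0.66 ± 0.15 on the log2 scale (SE, edgeR adjusted p = 0.0114), and all 17 alternatives kept the call, with values between 0.55 and 0.79. Ctsb, another cysteine protease, was at 0.31 (adjusted p = 0.14) and was called in 3 of 17 alternatives, whereas the carboxypeptidase Ctsz was at -0.03, the carboxypeptidase Ctsa at -0.08 and the aspartic protease Ctsd at -0.21 (adjusted p = 0.331). Ctsa and Ctsd hold TCACGTGA in their promoter windows.

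Lamp2 had the largest rise of the 42 genes. Its product is an abundant glycoprotein of the lysosomal membrane, and 1 of its isoforms serves as the receptor of chaperone-mediated autophagy. Lamp2 (ENSMUSG00000016534, mm10 chromosome X, 38401357 to 38456454) had 255, 219.9, 235.5 and 328 CPM in control replicates 71, 72, 73 and 76 and 325, 626, 569, 549.9 and 431.5 CPM in mutant replicates 74, 75, 77, 78 and 79. Mutant replicate 74 and control replicate 76 were nearly level, and the other 4 mutant libraries were above all controls. The rise was 0.95 ± 0.19 on the log2 scale (SE, edgeR adjusted p = 0.00621), called in all 17 alternatives with values between 0.85 and 1.21. Because Lamp2 is X-linked, it was also read within the libraries with and without Y-linked reads. Control replicates 71 and 76 (255 and 328 CPM) compared with 325 to 626 CPM in 4 mutant libraries without Y-linked reads, and control replicates 72 and 73 (219.9 and 235.5 CPM) compared with 431.5 CPM in mutant replicate 79.

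Lamp1, the close relative of Lamp2, had 387, 385, 414 and 403 CPM in control and 475, 485, 493, 481 and 456 CPM in mutant replicates. The groups did not overlap and each was tight, but the log2 difference of 0.27 ± 0.09 (SE) did not pass (edgeR adjusted p = 0.0707). Among the genes of cholesterol export, Npc2 was at 0.39 (adjusted p = 0.0599) and Npc1 at 0.10, and the calcium channel gene Mcoln1 was at -0.08. Of the 4 glycosidase, activator and granulin genes none was called by edgeR or DESeq2, and Grn was lower at an unadjusted p under 0.05 and with limma-voom. Their values ran from Gla, the alpha-galactosidase, at 0.37 (adjusted p = 0.211) over Hexa at 0.16 and the saposin precursor Psap at 0.03 to Grn, the progranulin gene, at -0.29 (adjusted p = 0.0855), with a median of 0.09.

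The order of levels between genes was read from the FPKM values of the authors, which are per length. By control mean, Ctsl (349 FPKM) was highest, followed by Bnip3l (280.4), Gabarap (198.5), Ctsd (191), Map1lc3b (189), Sqstm1 (184) and Lamp1 (183). From Gabarap to Lamp1 the means of neighbours differed by less than the spread between control libraries, which ran from 165 to 244 FPKM for Gabarap alone. At the other end were Tfeb (9.00), Ulk1 (7.84), Npc1 (7.60), Tfe3 (5.66), Gla (4.46), Ulk2 (4.41), Atg9a (2.81), Optn (2.26) and Mitf (0.455). Of the 6 genes called higher, 3 were thus among the 6 highest of the list, and Atg14, with 16.3 FPKM, ranked 30 of 42.

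Of the 42 genes, 11 are known targets of ATF4 or CHOP. With edgeR, Gabarap and Sqstm1 were called higher among them, 2 of 11 (18.2%, beside 7.82% of all genes), and none was called lower (7.02% of all genes). At an unadjusted p under 0.05, 3 of the 11 were higher (16.3% of all genes) and 1 lower (15.2%). DESeq2 called Gabarap and Sqstm1 higher (10.4% of all genes) and none of the 11 lower (8.59%). With limma-voom, Atg12, Gabarap and Sqstm1 were called higher (16.1% of all genes) and Atg7 lower (16.4%). By edgeR, 8 of 11 values were above 0 and the median was 0.15. The other 9 were Nbr1, Atg7, Atg16l1, Map1lc3b, Atg12, Atg3, Becn1, Gabarapl2 and Atg5.

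A wider list of 150 further genes of autophagy and the lysosome was examined beside the 42. Of these, 26 were called higher (17.3%, beside 7.82% of all genes) and 9 lower (6.0%, beside 7.02%), with a median log2 fold change of 0.12. The genes were unequally spread over the 8 lists. Of 25 genes of nutrient control of the lysosome and TFEB, edgeR called 10 higher (40.0%, beside 7.82% of all genes) and none lower (7.02%). Their median was 0.22. The 10 were Sesn2, Sesn3, Fnip1, Fnip2, Flcn, Rragc, Rragd, Lamtor3, Foxo1 and Foxo3, and DESeq2 called the same 10 higher (10.4% of all genes) and none lower (8.59%). At an unadjusted p under 0.05 12 were higher (16.3% of all genes) and 0 lower (15.2%). The limma-voom calls were 12 higher (16.1% of all genes) and 1 lower (16.4%). Sesn2, a leucine-binding inhibitor of mTORC1 signalling, had 7.50, 10.7, 12.6 and 17.3 CPM in control and 28.6, 26.3, 30.3, 27.7 and 71.7 CPM in mutant replicates. Its groups were far apart (log2 fold change 1.62 ± 0.32, SE, edgeR adjusted p = 0.00689), with mutant replicate 79 above the rest. Flcn and the FNIP proteins act on the Rag GTPases, RRAGC and RRAGD among them, which hold mTORC1 and TFEB at the lysosome.

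The V-ATPase is the proton pump that acidifies the lysosome. Of its 17 genes 5 were higher with edgeR (29.4%, beside 7.82% of all genes; Atp6ap2, Atp6v0c, Atp6v1e1, Atp6v0b and Atp6v1b2), none was lower, 15 values were above 0 and the median was 0.39. At an unadjusted p under 0.05 12 were higher (16.3% of all genes) and 0 lower (15.2% of all genes). DESeq2 called 7 of the 17 higher (10.4% of all genes) and limma-voom 12 (16.1% of all genes), again with none lower. Atp6ap2, an X-linked accessory subunit, had 141, 106, 125 and 156.5 CPM in control and 191, 322, 265, 289 and 214 CPM in mutant replicates. All mutant libraries lay above all controls, and the rise was 0.95 ± 0.17 on the log2 scale (SE, edgeR adjusted p = 0.00359).

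Genes of the lysosomal lumen were called in both directions. Of 26 glycosidases and lipid hydrolases edgeR called 3 higher (11.5%, beside 7.82% of all genes), Asah1 and Neu1 among them. Called lower were 6 (23.1%, beside 7.02% of all genes), namely Naglu, Glb1, Gm2a, Fuca1, Idua and Gusb, and the median of the list was -0.05. DESeq2 called 5 higher (10.4% of all genes) and 6 lower (8.59%), and limma-voom 6 higher (16.1%) and 7 lower (16.4%). Naglu, an enzyme of heparan sulfate breakdown, had 30.4 to 48.2 CPM in control and 8.77 to 24.3 CPM in mutant libraries with no overlap (log2 fold change -1.20 ± 0.24, SE, edgeR adjusted p = 0.007), and the acid ceramidase gene Asah1 was at 0.53 (adjusted p = 0.0307), with mutant replicate 74 inside the control range. Of 11 further proteases Ctsh (1.38, adjusted p = 0.0307) and Scpep1 were higher with edgeR (18.2%) and Ctsf (-0.59, adjusted p = 0.013) was lower (9.09%). DESeq2 called 2 higher and 1 lower, and limma-voom 4 higher and 1 lower. Ctsh had only 2.88 to 5.1 CPM in control and 5.66 to 22.5 CPM in mutant libraries. Ctss had the largest value (3.43, edgeR adjusted p = 0.0863), with at most 3.08 CPM in control. It had 1.53, 6.86, 30.55, 11.85 and 8.85 CPM in mutant replicates 74, 75, 77, 78 and 79. Of 21 further membrane genes edgeR called 5 higher (Tpcn1, Laptm4b, Scarb2, Cd63 and Ostm1, 23.8%) and 1 lower (4.76%). DESeq2 called 5 higher and 2 lower, and limma-voom 6 higher and 2 lower. Tpcn1, a cation channel of the endolysosome, had 20.3 to 31.0 CPM in control and 43.1 to 61.1 CPM in mutant libraries (log2 fold change 1.05, adjusted p = 0.00146), and Tmem175, a lysosomal ion channel, had 60.8 to 79.5 CPM in control and 36.3 to 51.7 CPM in mutant libraries (log2 fold change -0.60, adjusted p = 0.011).

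The counts for autophagy genes outside the 42 stand beside 7.82% of all genes called higher and 7.02% called lower with edgeR. The same shares of all genes were 16.3% and 15.2% at an unadjusted p under 0.05. They were 10.4% and 8.59% with DESeq2 and 16.1% and 16.4% with limma-voom. Of 18 further initiation genes none was called in either direction by edgeR or DESeq2, 2 were higher at an unadjusted p under 0.05, limma-voom called 3 higher and 1 lower, and their median was 0.09. Of 12 further conjugation and adaptor genes Plekhm1, an adaptor for fusion of autophagosomes with lysosomes, was higher (0.84, adjusted p = 0.0394) and none was lower with edgeR, also at an unadjusted p under 0.05, or with DESeq2, whereas limma-voom called 2 higher and 1 lower. Of 20 further selective autophagy and mitophagy genes none was higher with edgeR or DESeq2, and Bnip3, the paralogue of Bnip3l, was lower (-0.56, adjusted p = 0.0257). At an unadjusted p under 0.05 3 of the 20 were higher and 1 lower, and limma-voom called 3 higher and 2 lower. Bnip3 lay between 367 and 592 CPM in control and between 275 and 381 CPM in mutant libraries, so that mutant replicate 75 overlapped with the lowest control. The calls of Plekhm1, Bnip3, Ctsh and Asah1 were kept in 10, 11, 11 and 10 of 17 alternatives, whereas Sesn2, Atp6ap2, Ctsf, Naglu, Tpcn1 and Tmem175 kept theirs in all 17.

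**Figure D4:**
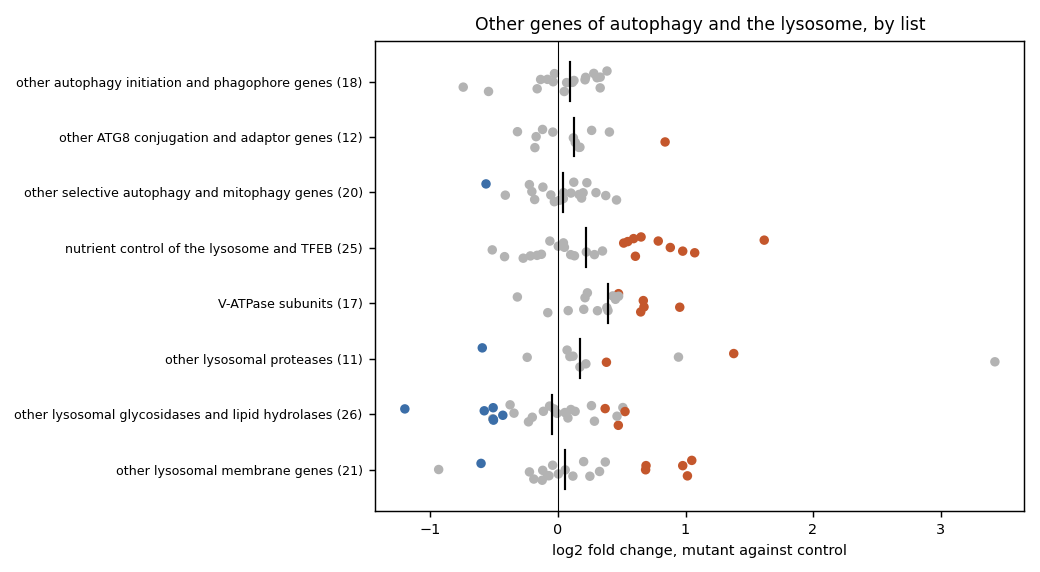
The log2 fold change of mutant against control (x axis) is drawn for 150 further genes in 8 lists, with the number of genes in brackets. Each point is a gene, orange for called higher, blue for called lower and grey for not called, and the black line is the median of the list, which is highest for the V-ATPase subunits at 0.39; points are spread vertically only for sight.

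Summed markers of macrophages, stroma and endothelium moved with the genotype. Marker sums are given here because several lysosomal genes are abundant in macrophages. The 16 macrophage markers summed to 4.43, 19.2, 5.35 and 27.4 CPM in control replicates 71, 72, 73 and 76 and to 21.7, 87.0, 249.9, 109.7 and 87.6 CPM in mutant replicates 74, 75, 77, 78 and 79 (exact 2-sided permutation of libraries, p = 0.0238). All 15 macrophage markers that could be tested had values above 0 and 6 were called higher, with a median log2 fold change of 3.34. In no library did Csf1r or Adgre1 (listed as Emr1), markers of the lineage, exceed 6.53 and 7.24 CPM, whereas C1qb reached 48.5 and C1qc 31.1 CPM, all in mutant replicate 77. The 10 stroma markers summed to 189 to 324 CPM in control and 403 to 942 CPM in the mutants (exact permutation test, p = 0.00794, the smallest that 126 splits allow), and 6 of 10 were called higher. Summed endothelium markers were 3.23 to 6.15 CPM in control and 5.62 to 10.7 CPM in the mutants (exact permutation test, p = 0.0476). The sums of ureteric bud, proximal tubule, podocyte and erythroid markers gave p-values of 0.183, 0.532, 0.603 and 0.786 in the same test. Only 4 of 8, 2 of 7, 3 of 5 and 1 of 6 of these markers had enough reads to be tested singly. The proximal tubule sum was 2.73 to 6.455 CPM in control. It was 23.7, 2.17, 17.2, 3.59 and 3.13 CPM in mutant replicates 74, 75, 77, 78 and 79.

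Mutant replicate 74, whose macrophage sum of 21.7 CPM was within the control range, had Ctsl at 914 CPM, Sqstm1 at 828.5 CPM, Gabarapl1 at 132 CPM and Atg14 at 61.8 CPM, each above all controls, and Lamp2 at 325 CPM and Gabarap at 307 CPM, both within the control range. The stroma sum was 574 CPM in that library and 942, 403, 444.5 and 497 CPM in mutant replicates 75, 77, 78 and 79. Mutant replicate 74 also had the highest sums of any library for several other cell types. These were proximal tubule (23.7 CPM, 2.73 to 6.455 CPM in control) and endothelium (10.7 CPM, 3.23 to 6.15 CPM in control). The others were podocyte (40.4 CPM, 18.1 to 36.1 CPM in control) and ureteric bud (68.6 CPM, 46.45 to 67.0 CPM in control). Among the mutant libraries, replicate 77 had the highest macrophage sum and replicate 75 the highest stroma sum, and Ctsl, Lamp2 and Gabarap were highest in replicate 75. The part of other cell types in the changes of the 42 genes was not tested. Markers of nascent nephrons were not among the lists. The paper does not fully exclude that differentiating Qpc+/- cells with low GFP were sorted as well.

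**Figure D5:**
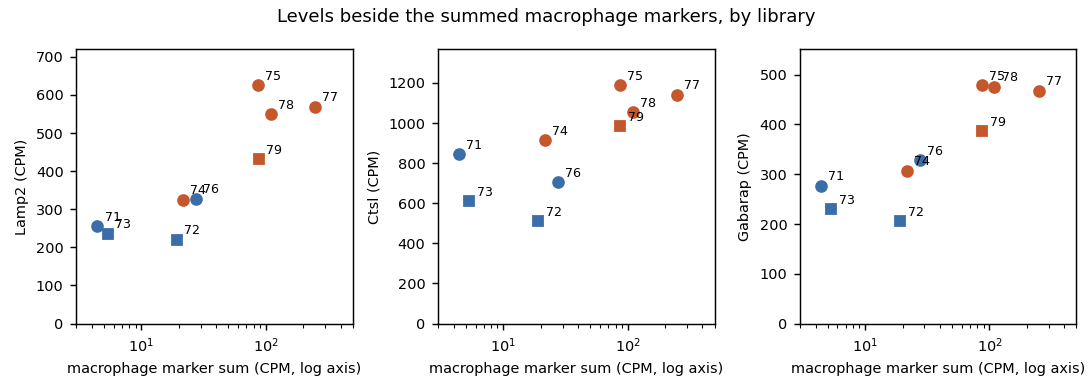
The CPM of Lamp2, Ctsl and Gabarap (y axes, linear from 0) is plotted against the summed CPM of 16 macrophage markers (x axis, log scale) for each library, labelled by replicate number. Blue is control and orange mutant, and squares are libraries with Y-linked reads; mutant replicate 74, at 21.7 CPM of markers, lies among the controls for Lamp2 and Gabarap and above them for Ctsl.

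Leaving out control replicate 76 and mutant replicate 74 together, an alternative chosen after the data were seen, gave 8 of the 42 genes higher and 3 lower. These libraries lay closest to the other genotype on the first principal component, so leaving them out favours a wider gap between the groups. Calls over all genes rose from 2225 to 3583 in that fit. With the presence of Y-linked reads as a covariate, also chosen afterwards, 5 were higher and none lower by edgeR, and Sqstm1 lost its call. Exons of Ctsl, Atg14 and Gabarapl1 overlap annotated transcripts on the opposite strand, whose reads cannot be told apart in libraries without strand information. The partner of Gabarapl1 had a mean of 0.520 CPM in control, whereas no level was available for those of Atg14 and Ctsl. Ctsl shares 1742 exon bases with its partner, Gm47123. It also shares 395 with Gm49230, a processed pseudogene on the same strand, again without a level.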

How the data were processed

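The authors prepared non-stranded, poly(A)-selected libraries from RNA of sorted cells with a low-input amplification kit and deposited counts per gene and library. The labels name STAR, DESeq2 and the build mm10 in the submitters' processing notes, without versions. FPKM values in the same table, made by the authors from counts, gene length and library totals, were used only to order levels between genes, and the authors' mean signal, fold changes and p-values were not used. Positions and identifiers are those of the table.

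The counts were tested with edgeR 4.0.16 in R 4.3.3 (filterByExpr on genotype, TMM, robust quasi-likelihood test, Benjamini-Hochberg adjustment, threshold 0.05), after a check on simulated counts. Standard errors were obtained from the fold change and its F statistic. The authors' own test for these data is not given in the sources used here beyond the name DESeq2 in the labels. Marker sums were compared by 2-sided exact permutation of the library labels (smallest p 0.00794). Totals of 21040536 to 23986458 counts make counting error small for nearly all of the 42 genes, whose lowest count in a library was 23 (Mitf).

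The 42 genes and all further lists were chosen with earlier results of these data known. Matching of older symbols through RefSeq synonyms left out Tp53inp1 and Tp53inp2. Named genes are all 42, with values by library for those called and for the ATG8 proteins, Tfeb, Pink1 and Sqstm1, and the largest called rise and fall of each pathway list. Lamp1 and Ctss by library and the other names of called pathway genes were added after their values were seen. Exon overlaps and near copies were searched in GENCODE M21 with BLAST+ 2.17.0.

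Alternatives were RLE and upper-quartile normalization, DESeq2 1.42.0, limma-voom (limma 3.58.1) with sample quality weights, no filter beyond 1 count, at least 10 counts in every library, and each library left out. A covariate for Y-linked reads (at least 100 in a library) and the joint removal of control replicate 76 and mutant replicate 74 were added after the data were seen. Both count among the 17 alternatives, and the removed libraries were those closest to the other genotype on the first principal component.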

Additional observations from a re-analysis of the deposited data

Results flagged for a closer look

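In 122 groups of 4 or 5 libraries, 7 single values stood apart from their group by Dixon's criterion, about as many as the 6.1 that chance alone gives at 1 in 20. Among the 42 genes, Ulk1 was low in control replicate 71 (33.4 CPM, next value 41.1) and Map1lc3a was low in control replicate 72 (94.9 CPM, next value 119). Atg9a was high in mutant replicate 74 (12.1 CPM, next value 7.48), Gabarapl1 in mutant replicate 75 (149 CPM, next value 132) and Npc1 in mutant replicate 79 (61.9 CPM, next value 42.2). Outside the 42, Sesn2 was high in mutant replicate 79 (71.7 CPM, next value 30.3) and Ctsh in mutant replicate 75 (22.5 CPM, next value 10.2). Without mutant replicate 75, neither Gabarapl1 (log2 fold change 0.32) nor Ctsh (0.90, down from 1.38) was called, whereas Sesn2 was still called without mutant replicate 79 (1.23).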

How the results depend on the processing

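No paired analysis was possible because the labels give no litter or other pairing of control with mutant libraries. Of the 42 genes, 6 were called higher and 0 lower; the counts were 11 and 7 with limma-voom, 9 and 0 with DESeq2, 3 and 0 without the filter on low counts, and 8 and 3 without control replicate 76 and mutant replicate 74. Leaving out 1 library gave between 2 (without control replicate 73) and 9 (without mutant replicate 74) higher, with 3 without control replicate 72, mutant replicate 75 or mutant replicate 78, and between 0 and 3 lower, with 1 without control replicate 76 and 3 without mutant replicate 74. For the 150 further genes, 26 higher and 9 lower became 48 and 15 with limma-voom, and 39 and 12 without control replicate 76 and mutant replicate 74; leaving out 1 library gave 13 (without control replicate 73) to 34 (without mutant replicate 74) higher, with 15 without control replicate 71, and 6 (without mutant replicate 78) to 13 lower. Over all genes, 2225 calls became 4868 with limma-voom, 3583 without control replicate 76 and mutant replicate 74, and 1046 (without control replicate 73) to 3136 (without mutant replicate 74) without 1 library. It was 1354 when control replicate 71 was left out, 1272 for control replicate 72 and 1336 for mutant replicate 78. Each fit without 1 library has fewer degrees of freedom than the full fit. Among these fits the calls over all genes went down in some and up in others, with 2279 without control replicate 76. The cause of these shifts was not tested. Of 1020 values of single genes and role medians under an alternative, 57 lost a call, 32 gained one, 931 did neither and none was a reversed call. Most of these values had no call to lose, so the 57 all fell on genes called in the main fit. Atg14, Gabarap, Gabarapl1 and Sqstm1 kept their calls in 9, 16, 7 and 5 of 17 alternatives. Ctsl, Lamp2 and Uqcrq kept their calls in all 17 alternatives. At these depths the spread between libraries, not counting error, limited the smaller differences.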
